A study of Caenorhabditis elegans with 3 samples.

Results

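The genes described here act in the induction and patterning of the vulva of the nematode Caenorhabditis elegans, the opening through which hermaphrodites lay eggs. They are lin-3, let-23, lag-2, lin-12, lin-11, cog-1, egl-17 and egl-26, 8 genes chosen by name, and a gene was taken up when a probe of the array carried its symbol and had a value on all 3 arrays. Of the 8, 6 met that rule with 1 probe each, among 15078 genes with a value on all arrays. lag-2, which encodes a Notch ligand, and egl-17, which encodes a fibroblast growth factor made by vulval cells, have no probe listed under their symbols and were not analysed here.

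The samples are 3 preps of mRNA from hermaphrodites labelled TP07 YA 1, at the early young adult stage. Each prep was set against a mixed reference of wild-type mRNA on a two-colour DNA microarray, where channel 1 held the reference and channel 2 the prep. The labels do not state the strain of the worms, their age in hours, the makeup of the reference or whether separate cultures were used. The p-values thus cover the spread among 3 preps that may be technical repeats.

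During larval life the anchor cell of the gonad releases an epidermal growth factor, which acts through its receptor, Ras and MAP kinase in the nearest epidermal precursor cell. That cell then signals to its neighbours through Notch, and Wnt signals keep the precursors competent and orient their divisions. The induced cells divide, adopt distinct vulval cell types under homeobox and zinc finger factors, and stack into rings that line the vulval opening. In adults the vulva is formed. Most of these genes are also used in other tissues, such as neurons, gonad and excretory cells.

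Every value below is a log2 ratio, likely of worms over reference, so 0 means equal signal and 1 means a doubling. The direction rests on the channel labels and on 3 collagen genes of the adult cuticle, col-19 at 2.60 ± 0.06, col-7 at 2.51 ± 0.63 and col-62 at 2.69 ± 0.84 (SD, n = 3). No label names the dyes, and if the ratio ran the other way each direction below would be reversed. A gene is called above or below the reference when limma's two-sided test of its mean against 0 gave an adjusted p under 0.05. Adjustment was by Benjamini-Hochberg over all genes tested. The test leaves out the reference's own spread, and the number of arrays limits its precision. A lower share of vulval cells in the worms and less RNA per vulval cell cannot be told apart in such RNA.

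The arrays carried between 19742 and 19914 values each, with medians from 0.01 to 0.02. Across genes, preps 2 and 3 were closest to each other (Pearson's r = 0.92), while prep 1 had r = 0.82 with prep 2 and r = 0.80 with prep 3. The level of the ratios differed along the probe list. Each probe was averaged over the preps, and the median of these averages was taken in 100 blocks of 200 neighbouring probes. In 65 blocks this median was farther than 0.1 from 0, and it ran from −0.31 to 0.30. Among the marker genes, all 8 of the germline were above the reference (0.87 to 2.52) and all 7 of the larval moult were below it (−2.65 to −0.76). The mean of the germline list lay between 1.37 and 1.84 in the preps and that of the moult list between −1.99 and −1.47. Of 8 measured neuronal markers 4 were below and 0 above, of 5 muscle markers 2 were above and 0 below, and of 8 markers of male-specific neurons 1 was below and 0 above. The part of germline, neuronal and stage differences in the values of the vulval genes was not tested.

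Of the 6 measured vulval genes, the receptor gene let-23 was above the reference, egl-26 was below it, and lin-3, cog-1, lin-12 and lin-11 did not pass. Over all genes tested 21.7% were called above, 22.2% below and 44.0% in either direction, so 2 calls among 6 are near the background. No member was as far as 1 from the reference. The median of the members was −0.02 against 0.00 over all genes, and the median distance from 0 was 0.24 against 0.34. Their spread between preps was also modest, with a median SD of 0.16 against 0.22 over all genes. Of the 6, 5 had the same sign in all preps, the exception being cog-1.

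**Figure D1:**
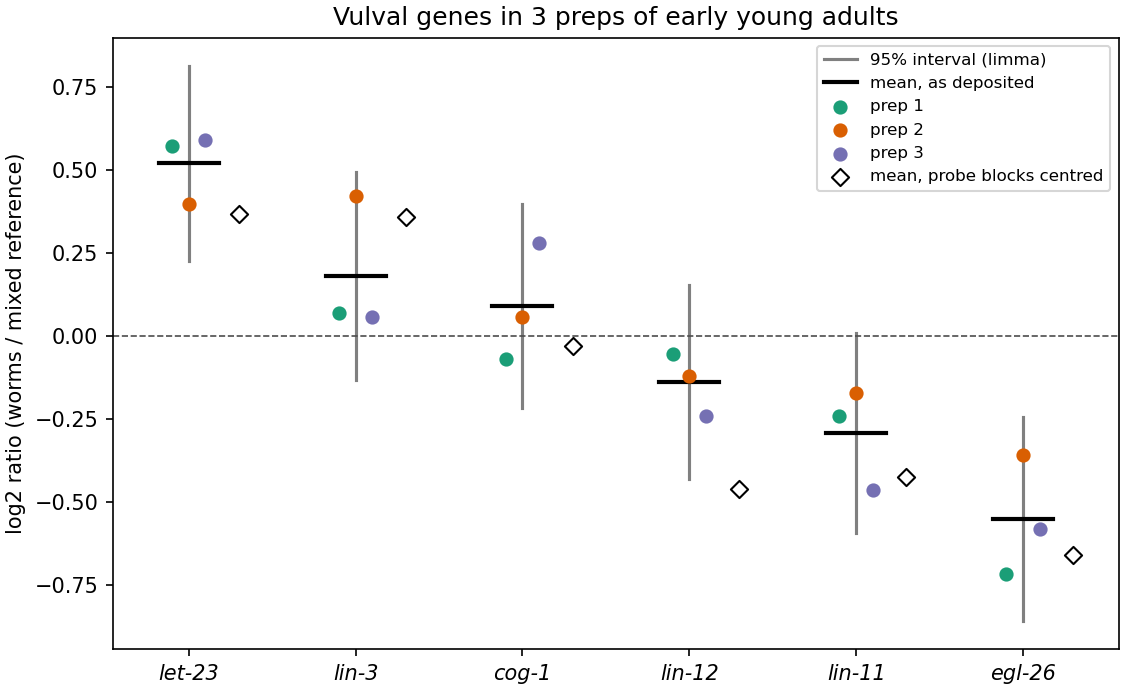
Log2 ratio of worms to mixed reference (vertical axis) for the 6 measured vulval genes, ordered by mean. Coloured points are the 3 preps, black bars the means, grey lines limma's 95% intervals, and open diamonds the means after blocks of 200 neighbouring probes were centred. The points of let-23 all lie between 0.40 and 0.59 and those of egl-26 between −0.72 and −0.36, whereas the intervals of the other 4 genes include 0.

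The ligand of the inductive signal, LIN-3, is an epidermal growth factor made by the anchor cell. lin-3, on chromosome IV, was at 0.07 in prep 1, 0.42 in prep 2 and 0.06 in prep 3. All preps were above 0, with prep 2 well above the other two. The mean was 0.18 ± 0.21 (95% interval −0.13 to 0.50) and did not pass (adjusted p = 0.326). Without prep 2 it was 0.06. With the blocks centred it was 0.36 and just passed (adjusted p = 0.0497), as the medians of its block averaged −0.18 over the preps.

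LET-23 is the receptor of that ligand, a tyrosine kinase on the vulval precursor cells. let-23, on chromosome II, was at 0.57 in prep 1, 0.40 in prep 2 and 0.59 in prep 3. All preps lay above 0, and the lowest of them was still below the highest prep of lin-3 by a small margin. The mean of 0.52 ± 0.11 (95% interval 0.23 to 0.82) is a signal 1.43-fold that of the reference (adjusted p = 0.0098), and 82.8% of the genes tested had a lower mean. Leaving out prep 3 ended the call (0.49, adjusted p = 0.0794), and so did a test against a margin of 1.2-fold (adjusted p = 0.122). It held with the blocks centred (0.37, adjusted p = 0.0418). Of the probes with a known chromosome in the block of let-23, 76.3% were for genes of chromosome II, whose median was 0.09. This step thus cannot tell a trend along the list from the level of the chromosome.

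Receptor and ligand were compared within each array. let-23 minus lin-3 was 0.51 in prep 1, −0.025 in prep 2 and 0.53 in prep 3, a mean of 0.34 ± 0.31. The receptor thus had the higher ratio in 2 of 3 preps and the difference was close to its own spread. A sign-flip test over 3 preps cannot give an exact p below 0.25, so differences between members are given without a test.

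LIN-12 is a Notch receptor that takes up the lateral signal between vulval precursor cells and also acts in the choice of the anchor cell. lin-12, on chromosome III, was at −0.05 in prep 1, −0.12 in prep 2 and −0.24 in prep 3. All preps were slightly below 0. The mean of −0.14 ± 0.09 (95% interval −0.43 to 0.16) did not pass (adjusted p = 0.431). lin-12 had the smallest SD of the 6 genes, and its mean moved most when the blocks were centred. The medians of its block averaged 0.32 over the preps, outside the range given earlier, which was taken from probe averages. With the blocks centred the mean of lin-12 was −0.46 ± 0.08 and passed (adjusted p = 0.0127). Of the probes with a known chromosome in that block, 55.1% were for genes of chromosome III, so a trend along the list and the level of the chromosome, whose median was 0.15, cannot be told apart by this step. let-23 exceeded lin-12 in every prep, by 0.63, 0.52 and 0.83 (mean 0.66 ± 0.16).

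LIN-11 is a LIM homeobox factor needed for vulval cell types and for the uterine cells that join the vulva. lin-11, on chromosome I, was at −0.24 in prep 1, −0.17 in prep 2 and −0.46 in prep 3. All preps were below 0, with prep 3 the lowest. The mean of −0.29 ± 0.15 (95% interval −0.59 to 0.01) did not pass (adjusted p = 0.109). It passed with the blocks centred, at −0.42 ± 0.33 (adjusted p = 0.0437), where the block median of this probe ran from −0.11 in prep 1 to 0.33 in prep 3. Of the probes with a known chromosome in that block, 69.7% were for genes of chromosome I, whose median was 0.17. A trend along the list and the level of the chromosome thus cannot be told apart here either.

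COG-1 is a homeobox factor of the Nkx type that helps to connect vulva and uterus. cog-1, on chromosome II, was at −0.07 in prep 1, 0.06 in prep 2 and 0.28 in prep 3. The preps fell on both sides of 0. The mean of 0.09 ± 0.18 (95% interval −0.22 to 0.40) did not pass (adjusted p = 0.632), and its sign was not stable, being −0.005 without prep 3 and −0.03 with the blocks centred. Between the homeobox genes, cog-1 exceeded lin-11 in every prep, by 0.17, 0.23 and 0.74 (mean 0.38 ± 0.32), with prep 3 giving most of the difference.

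EGL-26 is needed for the shape of the innermost vulval cells, where the vulval lumen meets the uterus. egl-26, on chromosome II, was at −0.72 in prep 1, −0.36 in prep 2 and −0.58 in prep 3. All preps lay below 0, and the range of egl-26 overlapped that of lin-11 but no other member. The mean of −0.55 ± 0.18 (95% interval −0.86 to −0.24) is a signal 1.47-fold below the reference (adjusted p = 0.00903), and 16.5% of the genes tested had a lower mean. Leaving out prep 3 ended the call (−0.54, adjusted p = 0.0563), and so did a test against a margin of 1.2-fold (adjusted p = 0.0998). It held with the blocks centred (−0.66, adjusted p = 0.00242).

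The order of the means was let-23, lin-3, cog-1, lin-12, lin-11, egl-26. Of the 5 pairs of neighbours in that order, only lin-12 over lin-11 (0.15 ± 0.09) and lin-11 over egl-26 (0.26 ± 0.19) had the same sign in all preps. lin-3 over cog-1 was 0.09 ± 0.30 and cog-1 over lin-12 was 0.23 ± 0.27, each within its SD. These are differences of log2 ratios, not of transcript levels, since probes of different genes cannot be set against each other for level.

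The member means span −0.55 to 0.52, a range that holds 66.2% of all genes tested. By distance over the 3 log2 ratios, the genes most like let-23 were fbxb-36 at 0.61, 0.39 and 0.57 (distance 0.04) and F44E7.5 at 0.60, 0.38 and 0.63 (distance 0.05). Those most like egl-26 were klp-4 at −0.71, −0.36 and −0.57 (distance 0.01) and vab-3 at −0.72, −0.36 and −0.56 (distance 0.02). In all, 14 genes lay within 0.1 of let-23 and 16 within 0.1 of egl-26, so such likeness over 3 arrays is common.

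**Figure D2:**
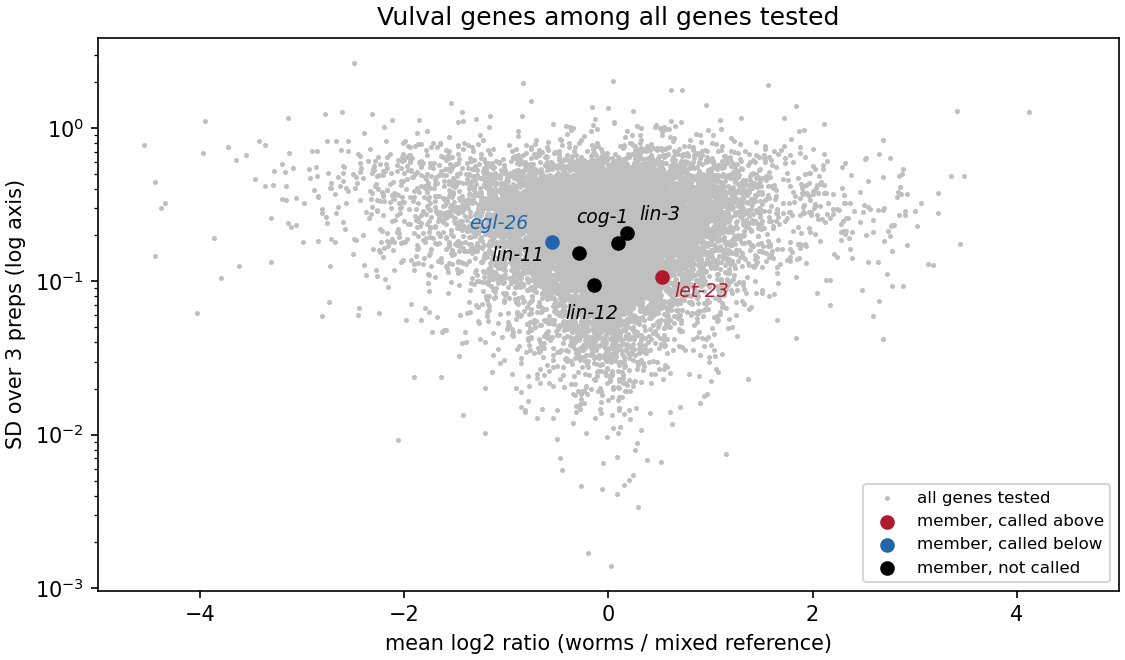
Mean log2 ratio of each gene (horizontal axis) against its SD over the 3 preps (vertical axis, log scale), with 15078 genes in grey. The 6 vulval genes sit in the dense centre, between −0.55 and 0.52, with let-23 called above (red), egl-26 called below (blue) and the other 4 not called (black).

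The other genes of these pathways were taken from 6 lists arranged by role, with 108 of 125 genes measured. Of the 108, 26 were above the reference (24.1%), 27 below (25%) and 55 did not pass, shares near the background of 21.7% and 22.2%. Their median was −0.18 against 0.00 over all genes. With the blocks centred the counts out of 108 were 19 above and 39 below, against a background then of 20.1% and 23%. The share below was then larger than the background. Without prep 2 the counts were 9 and 16 (background 15.1% and 15.5%), so the share above was smaller than the background. Without prep 3 the counts were 17 and 15 (background 16.3% above and below). Past a mean of 1 in size were sqv-5 above the reference and egl-20, ceh-20, bed-3, egl-15 and sem-4 below it. X-linked genes made up 27 of the 108, of which 1 was above and 11 below, while of the 81 autosomal genes 25 were above and 16 below. Over all genes tested, 6.5% of X-linked genes were above and 33.3% below, against 24.5% and 20.3% of autosomal genes. The median over all genes was −0.22 on X and 0.05 on the autosomes. Each list's 2 highest and 2 lowest genes are named. Further genes were chosen after their values were seen. They are named to complete a short count or a complex, to say what a list holds, or to compare the transcription factor list with such genes filed elsewhere.

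The list of EGF and Ras signalling holds the adaptor, Ras, kinase and nuclear steps downstream of LET-23. It also holds genes that act on the ligand or the receptor, rom-1 (called above), lin-2 (below), lin-7 (not called) and lin-10 (above). rom-1 was at 0.40 and only just passed (adjusted p = 0.0489). Its call was lost with arrays centred on their medians (adjusted p = 0.0531) and with the blocks centred (adjusted p = 0.0876). The call was also lost without prep 1 (adjusted p = 0.114), prep 2 (adjusted p = 0.0878) or prep 3 (adjusted p = 0.117). Of 19 measured genes 6 were above (31.6%, background 21.7%), 3 below (15.8%, background 22.2%) and 10 did not pass, with a median of −0.12. With the blocks centred the split turned to 3 above and 7 below. Highest were ptp-2, an SHP-type phosphatase, at 0.80 ± 0.26 (adjusted p = 0.00171), and the scaffold gene cnk-1 at 0.58 ± 0.07, whose call was lost without prep 2 (0.54, adjusted p = 0.0662). Below were eor-2, which encodes a nuclear factor of the pathway, at −0.59 ± 0.35 (adjusted p = 0.0136), lin-2 at −0.53 ± 0.07 (adjusted p = 0.0082) and lin-25, a nuclear step, at −0.45 ± 0.03 (adjusted p = 0.0177). lin-2 did not pass once prep 2 was left out (adjusted p = 0.0619), and lin-25 did not once prep 2 (adjusted p = 0.153) or prep 3 (adjusted p = 0.103) was. In the list 4 genes are X-linked, 2 of them below, eor-2 and lin-2. Without prep 2 the list had 1 above and 1 below, and without prep 3 it had 3 and 2.

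LIN-2, LIN-7 and LIN-10 form the complex that holds LET-23 at the basolateral membrane of the precursor cells. Their genes did not share a direction. lin-2 was at −0.61, −0.51 and −0.48 in the 3 preps and lin-7 at −0.62, −0.09 and −0.08, while lin-10 was at 0.32, 0.44 and 0.42. The mean of lin-7 was −0.26 ± 0.31 and did not pass (adjusted p = 0.196), though it did with the blocks centred (−0.40, adjusted p = 0.0324). The mean of lin-10 was 0.39 ± 0.07 and passed (adjusted p = 0.0329), but not with the blocks centred (0.28, adjusted p = 0.106), without prep 2 (adjusted p = 0.243) or without prep 3 (adjusted p = 0.175).

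Of 13 measured negative regulators of the EGF and Ras signal, 2 were above (15.4%, background 21.7%) and 5 below (38.5%, background 22.2%). The other 6 did not pass, and the median was −0.15. The Ras GTPase-activating protein genes gap-2 and gap-1 were at −0.72 ± 0.18 (adjusted p = 0.00217) and −0.66 ± 0.12 (adjusted p = 0.0029). The receptor phosphatase gene dep-1 was at −0.56 ± 0.14, dpy-23, which encodes a clathrin adaptor subunit, at −0.48 ± 0.22, and lst-2 at −0.38 ± 0.14. Above were lip-1, a MAP kinase phosphatase gene that Notch activates in these cells, at 0.54 ± 0.32 (adjusted p = 0.018) and lst-1 at 0.39 ± 0.21 (adjusted p = 0.0465). Of the 13 genes 7 are X-linked, and 4 of the 5 below are among them, all but dep-1. With the blocks centred 0 were above and 3 below, with lip-1 at 0.27 (adjusted p = 0.15) and lst-1 at 0.24 (adjusted p = 0.179), and with arrays centred on their medians 1 was above and 5 below. The list had 0 above and 3 below without prep 2, and 1 and 2 without prep 3, where gap-1 and gap-2 still passed.

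The Notch list, which was not split into genes that promote and genes that lower the signal, had calls above the reference and 0 below. Of 18 measured genes 5 were above (27.8%, background 21.7%) and 13 did not pass, with a median of 0.25 and 7 means below 0. The receptor gene glp-1, which acts in germline stem cells, was at 0.83 ± 0.23 (adjusted p = 0.0012) and the kinase gene sel-5 at 0.82 ± 0.20 (adjusted p = 0.00117). The ubiquitin ligase gene sel-10 was at 0.71 ± 0.10, the protease gene sup-17, whose product cleaves Notch, at 0.66 ± 0.22, and sel-1 at 0.49 ± 0.27, which did not pass without prep 2 (0.42, adjusted p = 0.173). Lowest were sel-9 at −0.32 ± 0.03 (adjusted p = 0.0743) and the presenilin gene sel-12 at −0.45 ± 0.39 (adjusted p = 0.0508). With the arrays centred on their medians 5 were above and 1, sel-12, below (adjusted p = 0.0452), and with the blocks centred 6 were above and 1 below. Without prep 1 the counts were 8 and 1. The 5 X-linked genes of the list had 0 calls. All 8 germline markers were above the reference as well, and their part in the 5 calls was not tested.

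Of 19 measured genes of Wnt signalling 7 were above (36.8%, background 21.7%), 4 below (21.1%, background 22.2%) and 8 did not pass, with a median of 0.10. This list was not split into genes that promote and genes that lower the signal. The ligand genes went both ways. egl-20, whose product is made in the tail and orients the vulval precursor cells, was at −1.04, −1.55 and −1.80 in the 3 preps, with prep 1 nearest to 0. Its mean of −1.46 ± 0.39 is 2.76-fold below the reference (adjusted p = 1.14e-04). cwn-2 was at −0.66 ± 0.40 (adjusted p = 0.01), a call lost without prep 2 (−0.55, adjusted p = 0.0612) or prep 3 (−0.54, adjusted p = 0.0685). mom-2 was at 0.68 ± 0.35 (adjusted p = 0.00662), a call lost without prep 2 (0.51, adjusted p = 0.0863). Also above was hmp-2, a beta-catenin gene of cell junctions, at 0.66 ± 0.36 (adjusted p = 0.0084), while the kinase gene lit-1 at −0.63 ± 0.22 and the beta-catenin gene wrm-1 at −0.42 ± 0.06 were below. lit-1 did not pass without prep 3 (adjusted p = 0.0534), nor wrm-1 without prep 2 (adjusted p = 0.195) or prep 3 (adjusted p = 0.141). With the blocks centred the split turned to 4 above and 7 below. It was 1 and 2 without prep 2, 3 and 1 without prep 3, and 6 and 6 without prep 1.

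Transcription factors of vulval competence, the anchor cell and the vulval cell types had 8 genes below the reference and 0 above, out of 19 measured. The background share is 22.2% below, and the share here was 42.1%. The list was chosen with earlier results of these data known, so this comparison is a description and not a test. All 19 means were below 0, from −1.31 to −0.02, with a median of −0.33, and 18 were below 0 when any 1 prep was left out. The direction holds for the genes filed here. The means of transcription factor genes filed in other lists went both ways, with eor-1 at 0.48, lag-1 at 0.27 and pop-1 at 0.11, but lin-1 at −0.24, lin-31 at −0.12 and sem-4 at −1.08. Of these, only eor-1 and sem-4 were called. The call of eor-1 was lost with the blocks centred (0.28, adjusted p = 0.0958) and without prep 2 (adjusted p = 0.0924). With the blocks centred lin-1 (−0.44, adjusted p = 0.0202) and lin-31 (−0.36, adjusted p = 0.0392) were called below. Lowest were ceh-20, which encodes a Hox cofactor, at −0.78, −1.57 and −1.58 in the 3 preps (mean −1.31 ± 0.46, adjusted p = 3.22e-04), and bed-3, a zinc finger gene, at −0.98, −1.15 and −0.98 (mean −1.03 ± 0.10, adjusted p = 2.24e-04). ceh-20 was thus 2.48-fold and bed-3 2.05-fold below the reference, and both were below 0 in every prep. Highest were lin-26, an epidermal zinc finger gene, at −0.02 ± 0.24 (adjusted p = 0.941) and the homeobox gene ceh-2 at −0.12 ± 0.34 (adjusted p = 0.562). Of the 15 autosomal genes in the list 6 were below and 0 above, with a median of −0.30, against 20.3% below, 24.5% above and a median of 0.05 over all autosomal genes. Of its 4 X-linked genes 2 were below. The count below was 12 with the blocks centred (background 23% below), 5 without prep 2 (15.5%), 5 without prep 3 (16.3%) and 11 without prep 1 (26%), with 0 above under each. Also below were all 7 markers of the larval moult, with a median of −1.78, and 4 of 8 neuronal markers, and their part in these values was not tested. Among the members, the homeobox genes lin-11 (−0.29) and cog-1 (0.09) are of the same kind of protein but are not in this list, and the mean of cog-1 as deposited lay above the whole of it.

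Genes of vulval morphogenesis and other markers went both ways. Of 20 measured genes 6 were above (30%, background 21.7%), 7 below (35%, background 22.2%) and 7 did not pass. The list had a median of −0.08. Of its 4 X-linked genes 1 was above and 3 below, with a median of −0.73, and of its 16 autosomal genes 5 were above and 4 below, with a median of 0.07. The chondroitin synthase gene sqv-5, needed for the vulval lumen to expand, was at 1.12, 1.38 and 0.77 in the 3 preps. Its mean of 1.09 ± 0.31 is 2.12-fold the reference (adjusted p = 3.97e-04). The netrin receptor gene unc-40 was at 0.73 ± 0.23 (adjusted p = 0.00236). The zinc finger gene sem-4 was at −1.04, −1.11 and −1.10, a mean of −1.08 ± 0.04 (adjusted p = 1.54e-04). egl-15, an X-linked gene that encodes the fibroblast growth factor receptor responding to EGL-17, was at −0.82, −1.15 and −1.13, a mean of −1.03 ± 0.18 (adjusted p = 2.90e-04). The values of these 4 genes did not overlap 0 in any prep, and their calls held without any 1 prep. The list had 3 above and 4 below without prep 2, 5 and 5 without prep 3, and 7 and 8 without prep 1. With the blocks centred it had 6 above and 9 below, and against the margin of 1.2-fold 2 and 4.

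**Figure D3:**
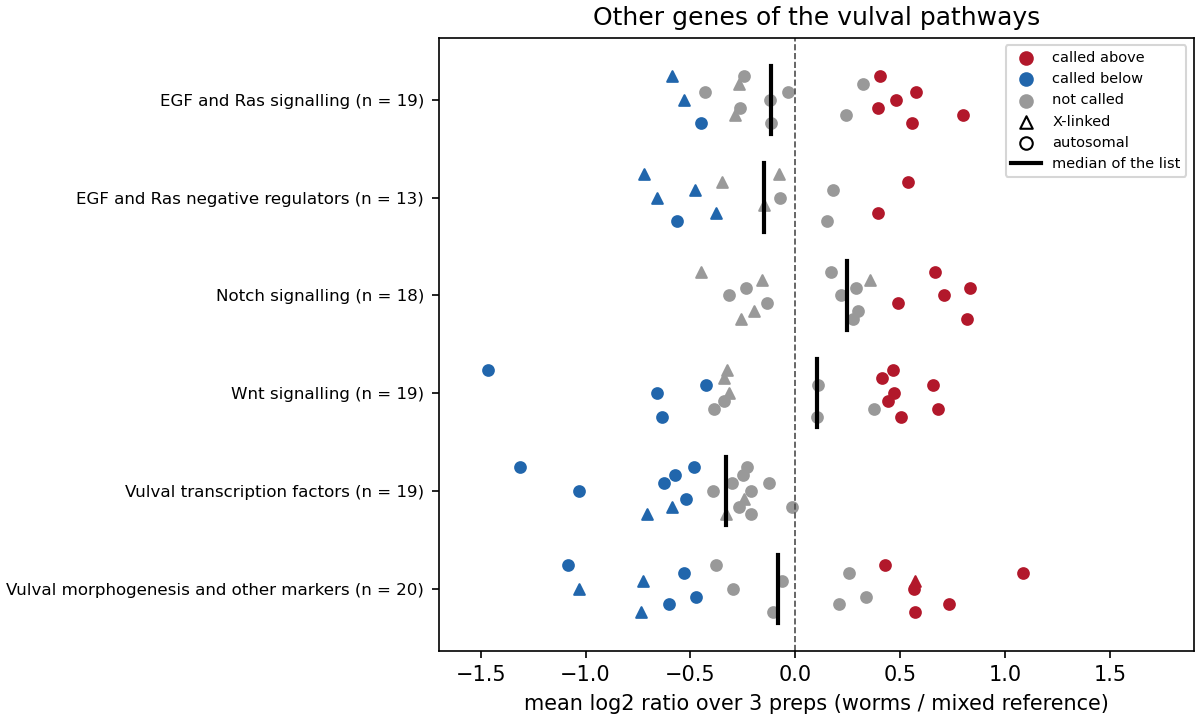
Mean log2 ratio over the 3 preps (horizontal axis) for 108 other genes of the vulval pathways, in 6 lists by role. Each point is a gene (triangles are X-linked, circles autosomal), coloured by limma's call, and black bars are list medians. All 19 genes of the transcription factor list lie below 0, while the Notch list has 5 genes called above and 0 below. The lists were chosen with earlier results of these data known.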

How the data were processed

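Each of the 3 arrays gave 1 deposited log2 ratio per probe, the authors' own processed values. Their background correction, normalization, dyes and tools are not stated in the labels or the file header. Base 2 was inferred from rounding: taken as powers of 2, 100% of ratios below 1 fell on steps of 0.001 (to 0.01 of a step), and as powers of e 3.12% did. Column medians were close to 0, while the method of centring and the dye orientation are unknown. Ratios were used as deposited.

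Of 20000 probes, 19664 had a value on all arrays. The platform's annotation gave 15655 probes 1 symbol and 198 several, and 4147 were not listed. Of the single symbols 15569 matched a table of WBcel235 genes, used for names and chromosomes only. Probes of a gene (414 genes had several) were averaged per array. Where several gene IDs share a symbol (16 symbols) they were kept apart. limma 3.58.1 in R 4.3.3 (lmFit on an intercept, eBayes, prior of 7.36 degrees of freedom and SD 0.25) tested each mean against 0. At an unadjusted p of 0.05 it called 7669 genes, and 6629 after adjustment. The steps were run on simulated data with 200 changed genes, far fewer than were called here. The recovery required there covered only changes larger than any member's mean, so it does not speak to changes of the members' size.

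The members and lists were chosen with earlier results of these data known. Named were all members, the 2 highest and 2 lowest genes of each of the 6 lists, and the 2 genes nearest to the highest and lowest member. Other genes were chosen after their values were seen. They were named to complete a short count or a complex, to say what a list holds, or to compare the transcription factor list with such genes filed elsewhere. Alternatives were centred, scaled or quantile normalized arrays, centred probe blocks, probes on at least 2 arrays, robust or no moderation, a 1.2-fold margin, probes in place of genes, the sign turned, and each prep left out.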

Additional observations from a re-analysis of the deposited data

How the results depend on the processing

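Robust moderation, a minimum of 2 arrays per probe, tests by probe, and arrays centred, scaled or quantile normalized left the calls of all 6 measured members as they were. Centring blocks of 200 probes gave 2 members above and 3 below, with lin-3 at 0.36, lin-12 at −0.46 and lin-11 at −0.42 now called and cog-1 at −0.030. Over all genes 20.1% were then called above and 23% below. Without moderation limma's ordinary test called 0 of 15078 genes (5400 at an unadjusted p of 0.05, among them 2 members and 36 pathway genes), so let-23 at 0.52 (adjusted p = 0.0906), egl-26 at −0.55 (adjusted p = 0.117) and all pathway genes (0 above, 0 below) lost their calls. Against a 1.2-fold margin 0 members were called (2 at an unadjusted p of 0.05), let-23 staying at 0.52 (adjusted p = 0.122) and egl-26 at −0.55 (adjusted p = 0.0998). Of the pathway genes 8 were above and 12 below that margin test's threshold, where 13.1% of all genes were called above and 13.8% below. With the sign turned let-23 was at −0.52, lin-3 at −0.18, cog-1 at −0.090, lin-12 at 0.14, lin-11 at 0.29 and egl-26 at 0.55. With 1 prep left out, let-23 ran from 0.49 to 0.58, lin-3 from 0.06 to 0.25, cog-1 from −0.005 to 0.17, lin-12 from −0.18 to −0.09, lin-11 from −0.35 to −0.21 and egl-26 from −0.65 to −0.47. Members called above ran from 0 to 1 and below from 0 to 1 (both 0 without prep 3, where 2 had an unadjusted p under 0.05), and pathway genes from 9 to 29 above and from 15 to 35 below. With 1 prep left out, the share of all genes called ran from 15.1% to 25.4% above and from 15.5% to 26% below. The margin lowers counts by its stricter null. Over all genes 7751 were called without prep 1, 4612 without prep 2 and 4923 without prep 3, against 6629 with all preps, and the cause of these changes and of those under block centring was not tested. No paired analysis was possible because the 3 preps form 1 group. Spot intensities were not analysed here, so the signal over background of these probes is unknown.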
